A study of Mus musculus with 30 samples.

Results

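Wild-type newborn mouse liver was measured on 3 of the 30 arrays of the series and was set against the 12 wild-type arrays of brain, kidney, stomach and salivary tissue, with 3 arrays in each of these 4 tissues. The 15 arrays were picked by the genotype and tissue in the sample titles, and no measured value is part of that rule. The comparison was chosen with earlier results of these data known. The series holds RNA of these 5 tissues from mice without ERRγ, an orphan nuclear receptor, and from wild-type mice. All mice were newborns of a mixed SV129/C57BL/6 background that were kept on laboratory chow, and their sex is given as unknown. Liver, brain, kidney, stomach and salivary tissue were the RNA sources, with no sorting of cells given, and total RNA was extracted with Trizol. The 3 liver arrays of null mice are given beside the wild-type result only as other arrays of the same tissue. The labels give neither the hour after birth nor whether the mice had suckled, and whether the replicate arrays stand for different pups is unstated. The p-values therefore describe spread among these arrays alone, and some of that spread may be technical.

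The newborn liver is at once a metabolic and a blood-forming organ. Hepatocytes secrete most plasma proteins, clear ammonia through the urea cycle, make bile acids and, once the supply through the placenta ends, release glucose and burn the fat of milk. Between the hepatocytes of the fetus and newborn lie islands of erythroblasts, granulocyte precursors, megakaryocytes and B cell precursors, which leave for the bone marrow and spleen after birth. Kupffer cells (the resident macrophages), sinusoidal endothelium, stellate cells and bile duct cells make up the rest.

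Each value is a log2 MAS5 signal, a summary of the brightness of 1 probe set, and a difference of 1 is a 2-fold change. Array medians lay between 5.83 and 5.86 in liver and between 5.90 and 6.03 on the 12 other arrays. The signal at the 3′ end exceeded that at the 5′ end of the Gapdh and Actb controls by 3.51 ± 0.10 in liver (SD, n = 3), against 2.09 to 2.83 as tissue means elsewhere, and all liver arrays lay above all others in this measure of RNA integrity. This gap and the tissue cannot be told apart. In bulk samples, fewer cells of a type and less RNA per cell cannot be told apart either.

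The label of the liver arrays was checked against the hepatocyte markers Alb and Afp. Alb, which encodes serum albumin, had 13.02, 12.90 and 12.89 on the liver arrays, against 5.29, 6.20 and 11.90 as the lowest, median and highest of the 12 other arrays. Afp, which encodes the fetal plasma carrier alpha-fetoprotein, had 13.03, 13.02 and 12.93 on the liver arrays, against 1.65, 5.52 and 11.43 on the others. The liver arrays did not overlap with any other array in either gene. The high values outside liver lay in the stomach group, which was not uniform: its replicates 1, 2 and 3 had 5.93, 10.25 and 11.90 for Alb and 6.60, 9.12 and 11.43 for Afp. The summed linear signal of the 25 measured plasma carrier and protease inhibitor genes was between 106043 and 115363 on the liver arrays, against 2569, 6263 and 21424 on stomach replicates 1, 2 and 3. Signals of hepatocyte genes were thus higher on stomach replicates 2 and 3 than on replicate 1, and counts were also computed without these 2 arrays. Kidney arrays had 9.03, 9.03 and 8.74 for Afp. Xist, a transcript of the inactive X chromosome, was 10.68, 11.01 and 6.90 on the liver arrays, and it was high in replicates 1 and 2 and low in replicate 3 of all 5 wild-type tissues.

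**Figure D1:**
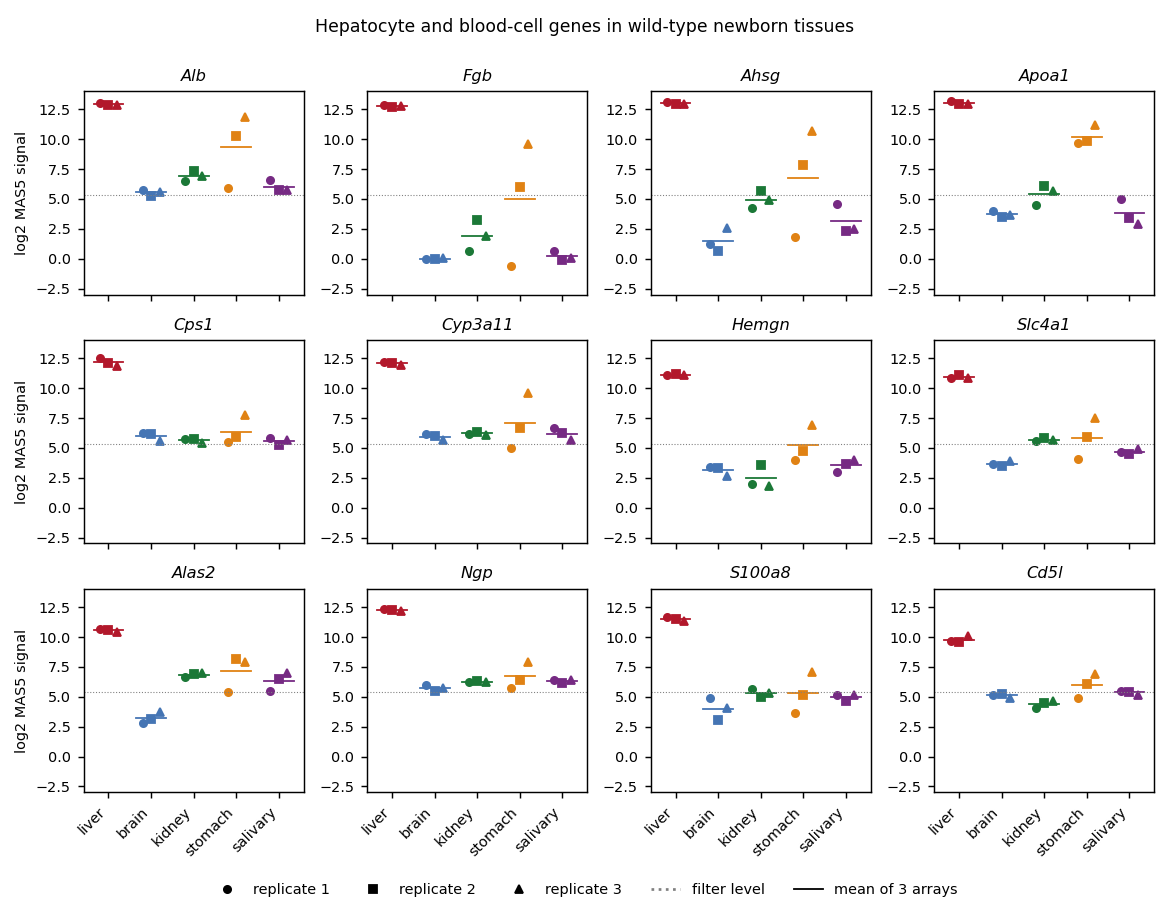
Signals of 12 hepatocyte and blood-cell genes on the 15 wild-type arrays (log2 MAS5 signal, 1 point per array, lines at the mean of 3 arrays), with liver at the left and the filter level of 5.36 dotted. The liver arrays lie above all 12 other arrays in each of the 12 genes, and stomach replicate 3 is the highest other array for Alb at 11.90.

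The comparison asked which transcripts set the newborn liver apart. Probe sets were tested where at least 1 tissue mean reached 5.36, the 40th percentile of all values, which left 16753 of 22626. Against the mean of the 4 other tissues, 4009 probe sets (23.9%) were higher and 6739 (40.2%) were lower in liver by limma at a Benjamini-Hochberg adjusted p under 0.05. The median difference over all tested probe sets was -0.17. Every array had the same scaled mean signal, so this value gives no overall level. A stricter rule was used to describe liver. A probe set was called liver-high where it passed and was at least 2-fold higher in liver in each of the 4 single-tissue comparisons, and liver-low by the same rule in the other direction. Of the tested probe sets, 956 (5.71%) were liver-high and 798 (4.76%) were liver-low. Of the 956, 335 reached 5.36 in liver alone, and 834 were still at least 2-fold higher with tissue means under 5.36 set to that level. Taking each gene by its brightest probe set, 666 of 10176 tested genes (6.54%) were liver-high and 467 (4.59%) liver-low. Without stomach replicates 2 and 3, 921 probe sets (5.5%) were liver-high and 652 (3.89%) liver-low, and these held 917 of the 956 liver-high and 636 of the 798 liver-low probe sets.

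The single-tissue comparisons differed in the number of calls. Probe sets higher in liver made up 28.5% against brain, 20.2% against kidney, 22.8% against stomach and 16.7% against salivary tissue. Those lower in liver made up 36.6% against brain, 34.6% against kidney, 31.2% against stomach and 28.5% against salivary tissue. Whether these shares differ was not tested. Of the 666 liver-high genes, the next-highest tissue was stomach for 249, salivary tissue for 169, kidney for 146 and brain for 102. With stomach replicate 1 alone in place of the stomach mean, these counts were 178 for stomach, 195 for salivary tissue, 181 for kidney and 112 for brain. In 77 of the 666 liver-high genes, stomach replicates 2 and 3 both lay at least 2-fold above replicate 1.

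Gene lists for hepatocyte functions, blood cell types, the other liver cells and the 4 other tissues were used to describe these calls. The lists were drawn up with earlier results of these data known. Lists are given by their measured members, since a member that passed the filter through liver alone had to be higher there. Liver-high genes named from a list were picked by that call, so a lack of overlap with the other arrays follows largely from the choice. The share of all genes without overlap is not given. A bounded median sets every tissue mean under 5.36 to that level first. Over all 12393 measured genes, 5.37% were liver-high and the median difference from the mean of the 4 tissues was -0.11 (-0.02 bounded). The lists for secreted plasma proteins, erythroblasts, granulocytes and macrophages had larger shares, and those for the other tissues and the cell cycle had shares near or below it.

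**Figure D2:**
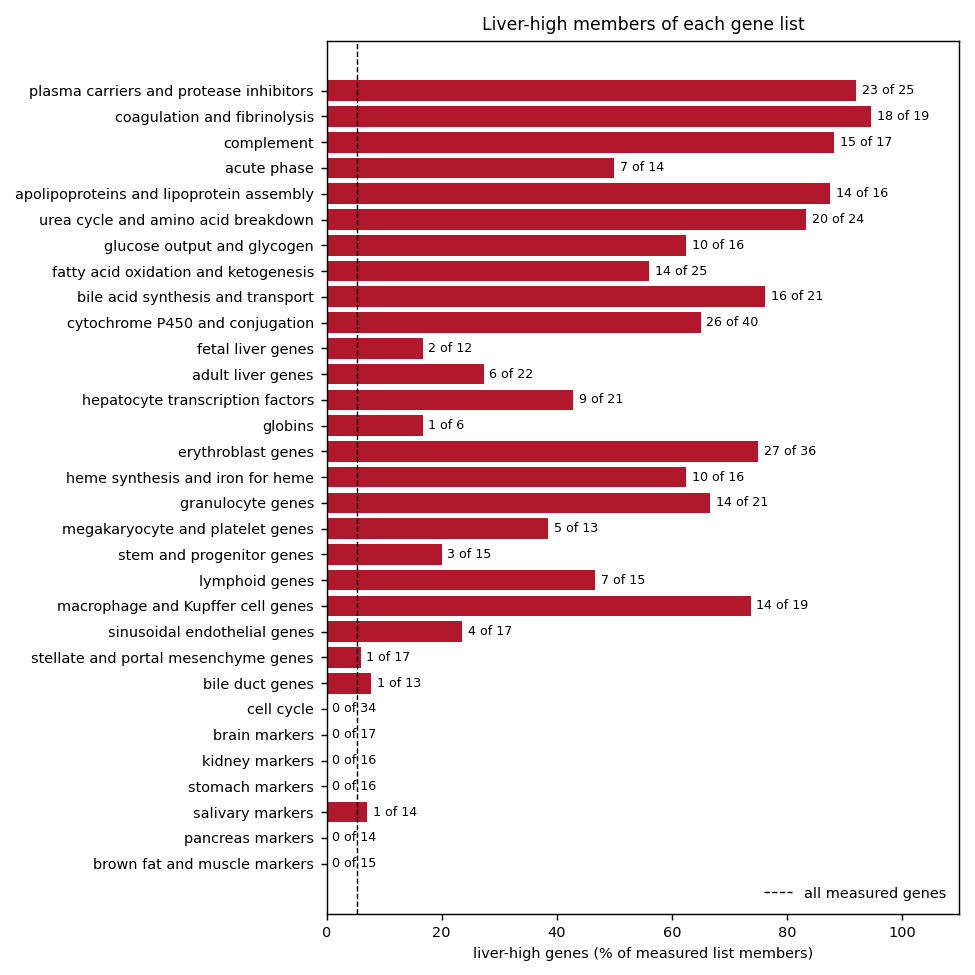
Share of the measured members of each of 31 gene lists that were liver-high (bars, %, with counts beside them), and the share over all 12393 measured genes (dashed line, 5.37%). Coagulation genes reach 18 of 19 and erythroblast genes 27 of 36, while the cell cycle list has 0 of 34.

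Plasma carriers and protease inhibitors had 23 liver-high genes among 25 measured members, with a median difference of 6.63 (5.97 bounded). Ahsg, which encodes fetuin-A, an inhibitor of calcification in plasma, had 13.12, 12.99 and 12.98 on the liver arrays, against 0.68, 3.39 and 10.65 as the lowest, median and highest of the others. Serpina1b, which encodes an antitrypsin, had 12.91, 12.79 and 12.73 on the liver arrays, against 1.51, 2.26 and 10.55 on the others. Neither gene overlapped between liver and the other arrays. Ahsg was at least 75.9-fold and Serpina1b at least 66.9-fold higher in liver than in any other tissue, where tissue means under 5.36 are counted as that level. Hp, which encodes haptoglobin, the carrier of free hemoglobin, was at least 66.7-fold higher (adjusted p = 9.44e-07 in limma against the mean of 4 tissues). Apcs, encoding serum amyloid P, Pzp, encoding a broad protease inhibitor, and Itih4, of the inter-alpha-trypsin inhibitor family, were at least 75.4-fold, 64.9-fold and 58.5-fold higher. Single stomach arrays set several of these folds: leaving out 1 array moved the fold by over 1.5 times for 32 of 127 named liver-high genes, for 31 of them through a stomach array. Without stomach replicate 1 it was 13.7 for Ahsg, 12.3 for Serpina1b, 27.5 for Hp, 20.5 for Apcs, 23.6 for Pzp and 23.5 for Itih4. Without stomach replicate 3 it was 204 for Ahsg and 124 for Pzp. Of the 23 genes, 15 also had stomach replicates 2 and 3 both at least 2-fold above stomach replicate 1.

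The members outside this pattern were Ttr and Serpina6. Ttr, which encodes the thyroid hormone carrier transthyretin and is also made by the choroid plexus, had 12.69, 12.82 and 12.76 on the liver arrays, against 12.14 ± 0.12 in brain (SD, n = 3), 10.53 ± 0.22 in kidney, 10.62, 11.15 and 11.87 in stomach, and 5.64 ± 1.83 in salivary tissue. It passed against each of the 4 tissues, but its difference from brain was 0.62, under 2-fold. Serpina6, which encodes corticosteroid-binding globulin and was chosen after its values were seen, had 4.78, 4.85 and 5.14 on the liver arrays, against 9.53 ± 0.09 in kidney. It was under the filter level on all liver arrays and was lower than in kidney (adjusted p = 4.07e-08 in limma).

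Coagulation genes gave a similar picture, with 18 of 19 measured members liver-high and a median difference of 6.22 (4.54 bounded). The 3 fibrinogen chain genes led. Fgb had 12.87, 12.68 and 12.74 on the liver arrays, against -0.60, 0.36 and 9.63 as the lowest, median and highest of the others, and was at least 169-fold higher in liver than in any other tissue. Fgg had 12.77, 12.70 and 12.71, against 0.24, 4.88 and 9.97, and was at least 120-fold higher. Fga had 12.37, 12.12 and 12.20, against 3.34, 4.82 and 9.58, and was at least 40.4-fold higher. In all 3 genes the highest other array was stomach replicate 3. Without stomach replicate 1 the folds were 30.8 for Fgb, 17.8 for Fgg and 15.4 for Fga, and without replicate 3 the fold of Fga was 95.7. Plg (plasminogen, the precursor of the clot-dissolving enzyme), Serpinc1 (antithrombin) and F10 (factor X of the clotting cascade) were at least 59.6-fold, 56.9-fold and 33.7-fold higher. The folds of Plg and Serpinc1 were 21.6 and 27.2 without stomach replicate 1, and 138 and 130 without replicate 3. Pros1, encoding the anticoagulant protein S and chosen after its values were seen, was the exception, with 6.65, 6.50 and 6.69 in liver, against 5.04, 6.94 and 7.14 as the lowest, median and highest of the others.

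Apolipoprotein and lipoprotein assembly genes included 14 liver-high members among 16 measured, with a median difference of 6.35 (5.15 bounded). Apoa1, the main protein of high-density lipoprotein, had 13.18, 12.96 and 12.97 on the liver arrays. It had 9.68, 9.85 and 11.15 in stomach, and 2.92 to 6.09 on the other 9 arrays. Stomach was thus high on all 3 arrays, while liver was still 7.01-fold above the stomach mean. Apob, the structural protein of very-low-density lipoprotein, was at least 36.8-fold higher in liver than in any other tissue, Apoa2 54.1-fold and Apoc2, which activates lipoprotein lipase, 39.8-fold. Apof and the plasma esterase gene Pon1 were at least 68.9-fold and 110-fold higher. Without stomach replicate 1 the fold was 27.4 for Apoa2 and 42.9 for Pon1. Without stomach replicate 3 it was 63.5 for Apob, 90.3 for Apoa2 and 71.8 for Apoc2, and without stomach replicate 2 it was 26.5 for Apoc2. Pltp and Lpl, both chosen after their values were seen, were not liver-high. Lpl, encoding lipoprotein lipase, was nonetheless bright in liver, with 12.06, 12.20 and 11.95, against 9.01, 10.10 and 11.96 on the others, and overlapped with the highest salivary array.

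To show the DNA next to these genes, the 250 bases before the annotated start were searched for GTTAAT on both strands, a core motif of the hepatocyte factor HNF1. Matches were present for 14 of the 48 liver-high genes of these 3 lists that had a sequence (29.17%), against 65 of 534 liver-high genes (12.17%) and 2023 of all 27025 genes (7.49%). A match describes the letters and is not a shown binding site. The upstream sequences of Alb, Afp and Fgb follow from RefSeq on build GRCm38.p6, 5′ to 3′ along the gene, ending at the base before the start. They were picked as examples because they hold a match, which is in capitals (GTTAAT, or ATTAAC where it lies on the opposite strand), and they belong to the hepatocyte markers and to a fibrinogen chain gene.
Alb (chr5:90460620-90460869, plus strand): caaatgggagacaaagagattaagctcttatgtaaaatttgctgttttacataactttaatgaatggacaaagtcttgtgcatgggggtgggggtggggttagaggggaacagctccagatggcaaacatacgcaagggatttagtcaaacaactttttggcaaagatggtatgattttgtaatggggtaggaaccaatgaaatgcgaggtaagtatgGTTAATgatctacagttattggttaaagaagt
Afp (chr5:90490464-90490713, plus strand): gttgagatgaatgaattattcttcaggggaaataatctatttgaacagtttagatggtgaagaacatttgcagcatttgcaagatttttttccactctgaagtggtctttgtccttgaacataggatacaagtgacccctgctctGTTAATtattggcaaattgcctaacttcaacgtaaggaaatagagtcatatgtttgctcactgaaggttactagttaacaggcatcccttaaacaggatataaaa
Fgb (chr3:83049864-83050113, minus strand): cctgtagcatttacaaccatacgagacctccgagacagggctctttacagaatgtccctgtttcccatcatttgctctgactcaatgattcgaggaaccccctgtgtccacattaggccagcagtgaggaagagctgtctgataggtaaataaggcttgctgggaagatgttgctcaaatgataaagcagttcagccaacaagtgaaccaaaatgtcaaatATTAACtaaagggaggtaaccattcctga
The match begins at base -32 in Alb, at -105 in Afp and at -29 in Fgb, counted back from the start. Each of the 3 genes was liver-high.

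Complement genes, whose products mark microbes for clearance and pierce their membranes, included 15 liver-high members among 17 measured, with a median difference of 3.79 (2.84 bounded). The genes of the membrane attack complex were led by Hc, encoding C5, which had 10.93, 11.19 and 11.34 on the liver arrays, against 3.14, 4.72 and 7.11 on the others, and was at least 55.5-fold higher than in any other tissue, or 27.7-fold without stomach replicate 1. C8a, C8b and C8g, the 3 chains of C8, were at least 13.5-fold, 9.69-fold and 14.6-fold higher, with every other array of C8a and C8b under the filter level. Mbl2, a mannose-binding lectin that starts the lectin pathway, was at least 40.9-fold higher and Cfb, a protease of the alternative pathway, 14.3-fold. The terminal genes C6 and C9, chosen after their values were seen, were not liver-high and stood near the filter level in liver, at 5.46, 5.69 and 5.58 for C6 and 4.85, 5.97 and 6.21 for C9.

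Most acute phase genes were either liver-high or under the filter level. Of 14 measured genes 9 passed the filter, 7 were liver-high and the median difference over all 14 was 2.68 (2.25 bounded). Il1rn and Socs3, named after their values were seen, passed the filter but were not liver-high. Their liver means were 6.62 and 6.22, and Socs3 did not pass against the mean of 4 tissues (adjusted p = 0.591 in limma). Crp (C-reactive protein) had 11.12, 10.93 and 10.83 on the liver arrays, against 4.16, 5.18 and 7.45 on the others. Hamp, encoding the iron hormone hepcidin, had 10.05, 9.58 and 10.23, against 4.73, 5.49 and 6.90. Neither overlapped. Cp (the copper carrier ceruloplasmin), Fgl1, Lbp (which binds bacterial endotoxin) and Saa4 were also liver-high, between 7.62-fold and 37.1-fold by the same measure. The highest of these, Fgl1, was at 67.3-fold without stomach replicate 3. In contrast, Saa1 and Orm1, which are strongly induced in inflammation and were chosen after their values were seen, did not exceed 4.06 and 3.26 on any liver array and were not tested.

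Of 24 measured urea cycle and amino acid breakdown genes, 20 were liver-high, with a median difference of 3.89 (3.36 bounded). Cps1, which encodes the first enzyme of the urea cycle, had 12.49, 12.08 and 11.89 on the liver arrays, against 5.20, 5.76 and 7.72 as the lowest, median and highest of the others, a difference from the mean of 4 tissues of 6.27 ± 0.32 (SE, adjusted p = 2.56e-10 in limma). Otc, the next enzyme of the cycle, had 10.39, 10.32 and 10.21, against 3.12, 4.10 and 5.15. Both genes separated liver from every other array, but for Otc only the liver mean reached the filter level. In methionine metabolism, Bhmt, Gnmt and Mat1a were at least 108-fold, 57.5-fold and 40.4-fold higher. In tyrosine breakdown, Hpd was at least 58.2-fold and Tat 13.6-fold higher, with Tat at 9.75, 8.81 and 8.96 on the liver arrays. Without stomach replicate 1 the folds of Bhmt and Hpd were 41.6 and 37.6, and without replicate 3 that of Bhmt was 164.

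Oat and Prodh, chosen after their values were seen, went another way. Oat, encoding ornithine aminotransferase, had 8.94, 8.82 and 8.91 on the liver arrays, against 9.21, 9.90 and 10.75 on the others, and was lower in liver in all 4 single-tissue comparisons, with differences of -1.78 to -0.36. Prodh, encoding proline dehydrogenase, had 4.68, 5.77 and 5.15, against 4.94, 5.55 and 6.89, and passed against kidney only (adjusted p = 0.00863 in limma). The mean deviation of the urea cycle list from the mean of the liver arrays was 0.32 on liver replicate 1, -0.09 on replicate 2 and -0.23 on replicate 3, the widest such spread among lists of more than 6 measured genes.

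Glucose output and glycogen genes were shared in part with kidney, the other gluconeogenic organ. Of 16 measured genes, 10 were liver-high, with a median difference of 2.88 (2.84 bounded) from the mean of 4 tissues but of 1.48 from kidney. Pck1, encoding the cytosolic phosphoenolpyruvate carboxykinase that commits carbon to glucose, had 10.35, 10.05 and 10.35 on the liver arrays, against 8.02 ± 0.23 in kidney (SD, n = 3) and 7.08 ± 1.87 in salivary tissue. G6pc, which releases free glucose, had 11.03, 10.52 and 11.43, against 8.32 ± 0.20 in kidney. Fbp1, encoding fructose bisphosphatase and chosen after its values were seen, had 12.59, 12.49 and 12.61, against 11.36 ± 0.13 in kidney. All 3 genes passed against kidney, at 4.68-fold, 6.36-fold and 2.30-fold, and kidney was the highest of the other tissues for each. Salivary replicate 3, where Pck1 reached 9.23, also had the highest summed signal of brown fat and muscle markers, 12109 against 1758 and 2004 on the other salivary arrays, and their part in the result was not tested.

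Gys2, the liver glycogen synthase, had 9.15, 8.99 and 9.0, against 0.11, 1.05 and 5.28, with every other array under the filter level. Pygl, the liver glycogen phosphorylase, was 5.78-fold above the next-highest tissue and Gckr, the regulator of glucokinase, at least 8.06-fold. Igfbp1, an insulin-repressed binding protein of insulin-like growth factors, had 12.71, 12.73 and 12.69, against 1.83, 4.83 and 10.69, and was 35.1-fold above the stomach mean, the next highest (9.55-fold without stomach replicate 1 and 78.4-fold without replicate 3). Members that were not liver-high included Ugp2 and the coactivator gene Ppargc1a, both chosen after their values were seen. Ppargc1a had 7.21, 7.45 and 6.82 in liver, against 6.05, 8.03 and 8.52 on the others.

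The sequence before G6pc is shown as an energy gene with the same GTTAAT match in capitals, at base -221.
G6pc (chr11:101367466-101367715, plus strand): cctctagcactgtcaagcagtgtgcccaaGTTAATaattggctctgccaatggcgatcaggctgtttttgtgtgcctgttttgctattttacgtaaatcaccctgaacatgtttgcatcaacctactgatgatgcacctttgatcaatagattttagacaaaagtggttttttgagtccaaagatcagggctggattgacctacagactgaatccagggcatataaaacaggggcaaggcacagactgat

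**Figure D3:**
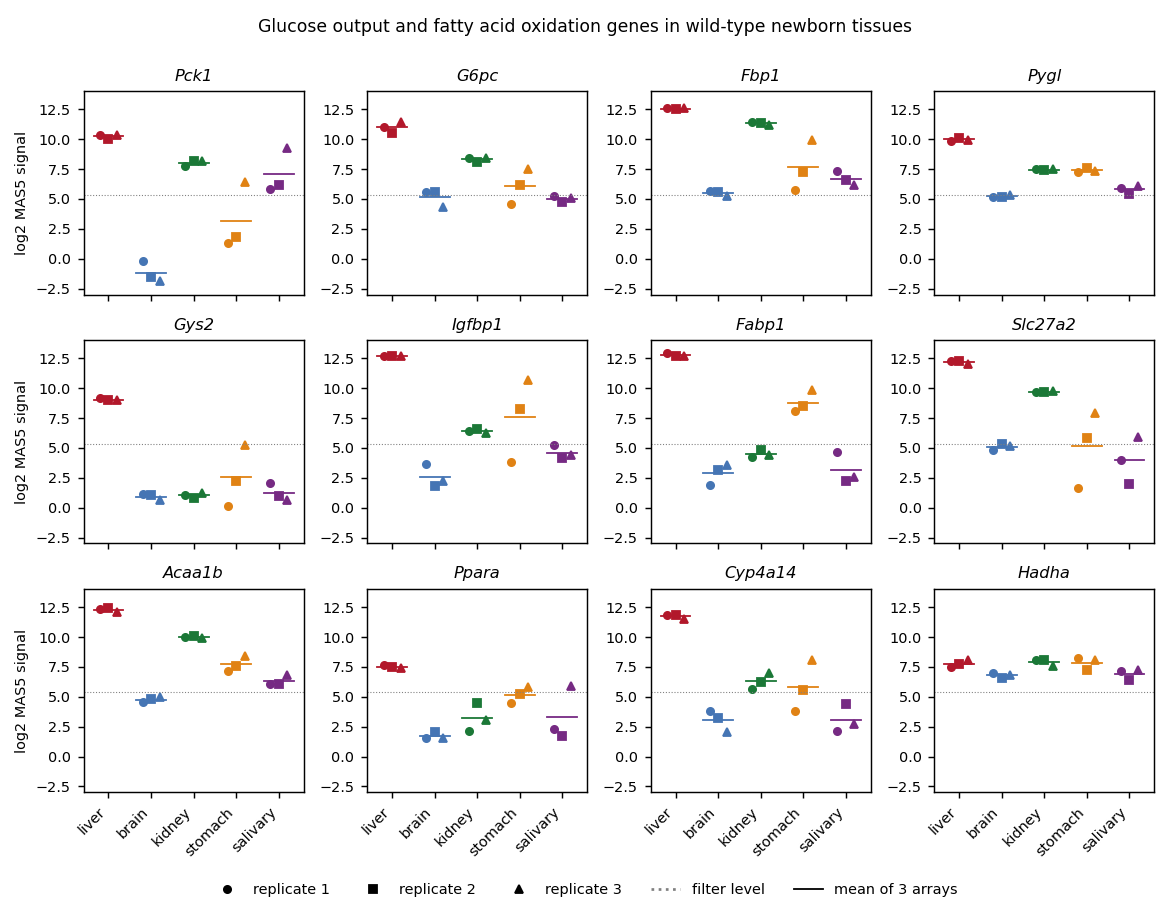
Signals of 12 genes of glucose output, glycogen and fatty acid oxidation on the 15 wild-type arrays (log2 MAS5 signal, 1 point per array, lines at the mean of 3 arrays, filter level dotted), with liver at the left. Kidney is the next-highest tissue for Pck1, G6pc, Fbp1, Slc27a2 and Acaa1b, whereas Hadha overlaps between liver, kidney and stomach.

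Fatty acid oxidation and ketogenesis genes came next. Of 25 measured genes, 24 were higher than the mean of 4 tissues (background 25.1% of tested genes higher and 41% lower), 14 were liver-high, and the median difference was 1.91 (1.81 bounded). Several liver-high members serve uptake and peroxisomal or microsomal oxidation. Fabp1, the liver fatty acid binding protein, had 12.91, 12.72 and 12.65, against 1.93, 4.35 and 9.82. Slc27a2, an acyl-CoA synthetase of peroxisomes and the endoplasmic reticulum, had 12.29, 12.27 and 12.04, against 1.64, 5.57 and 9.73. Cyp4a14, an omega-hydroxylase, and Acaa1b and Ehhadh, of the peroxisomal pathway, were at least 43.8-fold, 4.89-fold and 4.16-fold higher than in any other tissue. Ppara, the nuclear receptor for fatty acids, had 7.65, 7.48 and 7.43, against 1.52, 2.71 and 5.90. The summed linear signal of the list was 49390 to 56752 on the liver arrays, against 12041, 11350 and 25552 on salivary replicates 1, 2 and 3. Salivary replicate 3 is the array with the highest brown fat and muscle markers, their part in the result was not tested, and without it 16 members were liver-high.

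Mitochondrial genes of the list fell on both sides. Bdh1, Cpt1a, Slc25a20, Acadvl, Hadhb, Acaa2 and Etfdh, named after their values were seen, were liver-high. Hadhb, the other subunit of the trifunctional protein, was 1.91 above the mean of 4 tissues and 1.12 above stomach, the next highest. Some other mitochondrial beta-oxidation enzymes lay closer to other tissues. Acadm, Hadh and Hadha, chosen after their values were seen, were not liver-high. Acadm, the medium-chain dehydrogenase, had 11.49, 11.06 and 10.95 in liver, against 10.57 ± 0.16 in kidney (SD, n = 3). Hadh had 12.68, 12.87 and 12.86, against 11.55, 11.62 and 12.66 in salivary tissue, the next highest, and 11.86 ± 0.12 in kidney. Hadha, a subunit of the trifunctional protein, had 7.52, 7.76 and 8.05, against 6.41, 7.25 and 8.23 as the lowest, median and highest of the others, and its difference from the mean of 4 tissues, 0.41 ± 0.21 (SE), did not pass (adjusted p = 0.0992 in limma). In null arrays 7 members of this list were liver-high, against 14 in wild-type arrays, and the difference between the genotypes was not tested.

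Bile acid synthesis and transport genes followed the hepatocyte pattern. Of 21 measured genes, 16 were liver-high, with a median difference of 3.18 (2.77 bounded). Cyp7a1, the rate-limiting enzyme of bile acid synthesis, had 8.31, 8.44 and 8.82 on the liver arrays, against 3.17, 5.0 and 5.53 on the others. Cyp8b1, which sets the cholic acid share, had 8.90, 8.68 and 8.85, against 3.58, 5.07 and 5.80. Neither overlapped. The uptake transporter genes Slc10a1 and Slco1b2 were at least 34.6-fold and 17.2-fold higher, the export pump genes Abcb11, for bile salts, and Abcb4, for phospholipid, 17.1-fold and 10.8-fold, and Slc27a5, which activates bile acids for conjugation, 26.6-fold. Nr1h4, the bile acid receptor FXR, was 5.79-fold above kidney. Cyp7b1, of the alternative pathway and chosen after its values were seen, was lower in liver in all 4 comparisons, with 4.85, 5.18 and 5.09, against 5.51, 6.06 and 6.91 on the others.

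Cytochrome P450 and conjugation genes made up the largest hepatocyte list, with 26 of 40 measured members liver-high and a median difference of 3.73 (3.06 bounded). Cyp3a11, a main drug-metabolizing enzyme, had 12.16, 12.08 and 11.96 on the liver arrays, against 4.95, 6.20 and 9.62 on the others. Cyp2e1, which oxidizes ethanol, had 12.14, 11.91 and 11.94, against 5.52, 5.88 and 9.13. Both lay above every other array. Ces1c, a secreted carboxylesterase, was at least 65.6-fold higher than in any other tissue, Cyp3a25 52.5-fold and Cyp2d10 39.9-fold. Members of these families are close in sequence and probe sets may pick up more than 1 of them. Cyp2f2 and Sult1d1, chosen after their values were seen, were high outside liver: Cyp2f2 had 11.07, 10.10 and 10.14 in liver, against 11.42 ± 0.17 in salivary tissue (SD, n = 3) and 10.06, 10.26 and 9.95 in stomach. Sult1d1 had 8.67, 8.63 and 8.48 in liver, against 9.15 ± 0.14 in kidney. In null arrays 18 members of the list were liver-high, against 26 in wild-type arrays, and the difference was not tested.

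Genes that mark fetal and adult stages of liver were also read. Of 12 measured fetal liver genes only Afp and Igf2 were liver-high, and the median difference was -0.04 (0.05 bounded). Igf2, the fetal growth factor, had 11.95, 12 and 11.87, against 8.97, 10.14 and 10.85, and was 2.21-fold above stomach. Dlk1, a Notch-like protein of hepatoblasts, had 6.87, 6.62 and 7.97 in liver, against 11.80 ± 0.36 in salivary tissue (SD, n = 3), and the growth inhibitor gene Cdkn1c, chosen after its values were seen, differed by -2.05 from the mean of 4 tissues. Gpc3, a glypican of fetal liver, had 8.81, 8.32 and 8.61, against 9.43 ± 0.06 in kidney. Its means in brain, stomach and salivary tissue were lower, at 5.83, 8.09 and 7.62. Of the 12 genes, 5 were higher and 5 lower than the mean of 4 tissues (background 25.1% of tested genes higher and 41% lower). Besides Afp and Igf2 the higher ones were Gpc3, Grb10 and Igf2bp3, by 0.84, 1.32 and 0.81. Grb10 and Igf2bp3 were named after their values were seen.

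Of 22 measured adult liver genes, 6 were liver-high and the median difference was 1.26 (0.74 bounded). Besides Cyp8b1, Hamp and Cyp3a25 these were Cyp1a2, Cyp2b9 and Cyp2c37. Cyp1a2 had 8.26, 8.57 and 8.57 on the liver arrays, with the highest other array at 4.45. It averaged 3.83 in null liver and 8.47 in wild-type liver, a difference that was not tested. Cyp2c37 had 9.98, 7.33 and 9.53 and was among the 5 genes with the largest spread between the liver arrays. Several genes of mature liver stayed under the filter level. Mup3 (a major urinary protein), Hsd3b5 (a male-biased steroid enzyme) and the transporter gene Slco1a1 did not exceed 1.88, 2.09 and 4.39 on the liver arrays and were not tested; they were chosen after their values were seen. Car3, a muscle and adult liver carbonic anhydrase, had 10.07, 10.50 and 10.73 in liver, against 11.17 ± 0.54 in salivary tissue (SD, n = 3), and was higher than in the other 3 tissues.

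Hepatocyte transcription factor genes included 9 liver-high members among 21 measured, with a median difference of 1.58 (1.38 bounded). Onecut1 (HNF6) had 7.08, 7.35 and 7.59, against 0.95, 3.84 and 5.11, and Creb3l3, a membrane-bound factor of the fasting response, had 10.19, 9.87 and 9.67, against 5.04, 5.79 and 6.72. Nr1i3, the xenobiotic receptor CAR, had 6.84, 6.33 and 6.76, against 0.43, 2.20 and 2.87. None of the 3 overlapped, but for Onecut1 and Nr1i3 only the liver mean reached the filter level. Hnf4a, a master regulator of hepatocytes that is also used in kidney tubule and gut, had 10.01, 9.75 and 9.73 in liver, against 9.07 ± 0.16 in kidney (SD, n = 3) and 8.30, 8.5 and 8.24 in stomach. It passed in all 4 comparisons but was under 2-fold above kidney. Foxa1, an endoderm pioneer factor chosen after its values were seen, had 6.16, 6.13 and 6.19 in liver, against 10.04 ± 0.17 in salivary tissue and 10.02, 9.76 and 9.77 in stomach. Foxa2, also chosen after its values were seen, had 7.81, 7.80 and 7.91, against 7.88, 7.92 and 7.88 in stomach. Esrrg, deleted in the null mice, read 6.64, 6.33 and 6.50 in wild-type liver, against 5.89, 6.02 and 6.57 on the others.

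**Figure D4:**
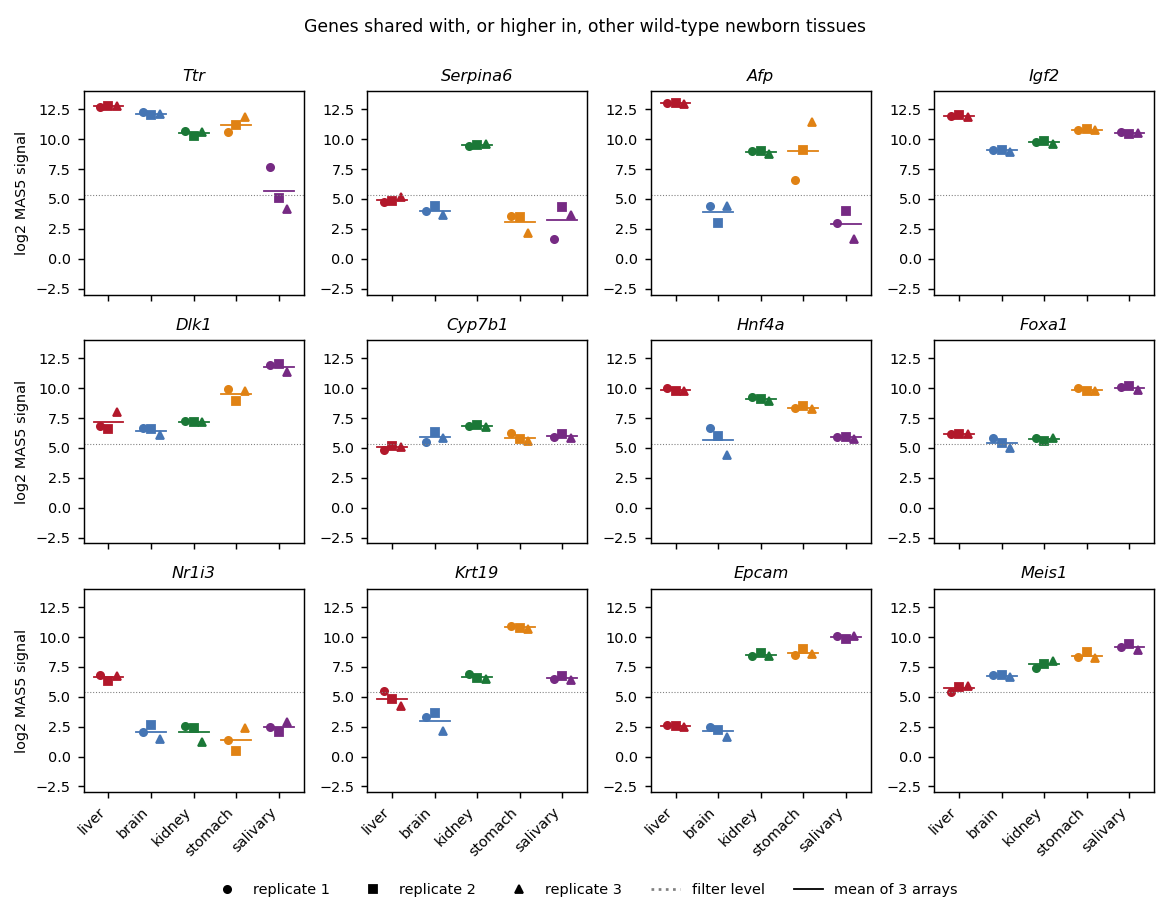
Signals of 12 genes that liver shared with other tissues or that were higher elsewhere, with Afp, Igf2 and Nr1i3 as liver-high genes beside them (log2 MAS5 signal, 1 point per array of the 15 wild-type arrays, lines at the mean of 3 arrays, filter level dotted). Ttr is bright in liver and brain, Serpina6 in kidney, and Epcam lies under 3 on all liver arrays.

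Erythroblast genes were the first of the blood lists. All 36 measured members were higher in liver than the mean of 4 tissues, against 25.1% of all tested genes. Of the 36, 27 were liver-high, and the median difference was 3.01 (2.13 bounded). Hemgn, an erythroid nuclear protein, had 11.06, 11.20 and 11.07 on the liver arrays, against 1.84, 3.48 and 6.95 as the lowest, median and highest of the others. All 4 other tissue means of Hemgn were under the filter level, and with these set to 5.36 liver was 5.75 higher. Of the 27 liver-high genes, 13 reached the level in liver alone, so the direction of these 13 was fixed by the filter. Slc4a1, the anion exchanger band 3 of red cells, had 10.87, 11.12 and 10.81, against 3.48, 4.76 and 7.47. Both separated liver from every other array. The blood group genes Ermap, Rhag and Kel were at least 28.1-fold, 14.7-fold and 12.9-fold higher, and the mouse erythroid claudin gene Cldn13 15.3-fold. The erythroid factors Klf1 and Gata1 had 9.44, 9.48 and 9.41, and 7.77, 8.04 and 8.0, with no other array above 5.96 for either.

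Members that were not liver-high included Epor and Tfrc. Epor, the erythropoietin receptor, had 7.11, 7.27 and 7.46 in liver, against 6.08, 6.36 and 6.83 on the others, and passed in all 4 comparisons. Tfrc, the transferrin receptor that imports iron and a gene chosen after its values were seen, had 10.56, 10.79 and 10.85, against 8.93, 9.47 and 9.91. Of the 27 liver-high erythroblast genes, 1 had stomach replicates 2 and 3 both at least 2-fold above replicate 1. The count was 15 of 23 for plasma carrier genes and 77 of 666 for all liver-high genes. The 2 lists differ in how far liver lies above the other tissues, with median differences of 3.01 and 6.63. These counts therefore cannot show whether blood-cell signal differed between the stomach arrays. The median signal of the 27 genes was 4.58, 4.90 and 5.56 on stomach replicates 1, 2 and 3, while that of the 23 plasma carrier genes was 4.87, 6.42 and 8.89.

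**Figure D5:**
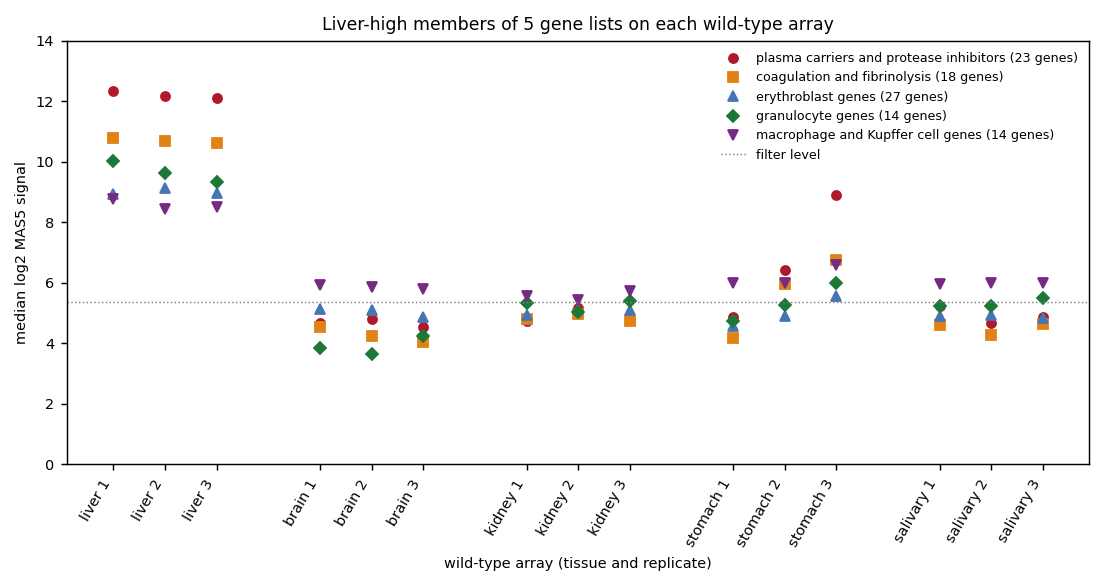
Median log2 MAS5 signal of the liver-high members of 5 gene lists on each of the 15 wild-type arrays, with the filter level of 5.36 dotted. Members were chosen for being high in liver, so the figure describes how the other arrays vary: the plasma carrier median is 8.89 on stomach replicate 3 and the erythroblast median 5.56.

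Heme synthesis and iron supply had 10 of 16 measured members liver-high and a median difference of 2.33 (2.09 bounded). All 16 were higher than the mean of 4 tissues, against 25.1% of all tested genes. Of the 10 liver-high genes, 1 reached the filter level in liver alone. Alas2, the erythroid first enzyme of heme synthesis, had 10.67, 10.57 and 10.46 on the liver arrays, against 2.77, 6.55 and 8.18 on the others. Fech, the last enzyme, which inserts iron, had 11.23, 11.13 and 11.16, against 8.28, 8.78 and 9.31. Neither overlapped, and the highest other arrays were stomach replicates 2 and 3. Slc25a37 (mitoferrin, the mitochondrial iron importer), Urod and Steap3 (an endosomal iron reductase) were 4.33-fold, 4.03-fold and 5.62-fold above the next-highest tissue. Hmox1, which breaks heme down, was at least 3.71-fold above it and Blvrb, of the same pathway, 4.17-fold.

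Upstream of the erythroblast and heme genes, AGATAA, a motif of GATA factors, was searched for on both strands in the 250 bases before the start. It was present for 8 of 26 such liver-high genes with a sequence (30.77%), against 82 of 534 liver-high genes (15.36%) and 3090 of all 27025 genes (11.43%). For the liver-high plasma protein and apolipoprotein genes the count was 4 of 48 (8.33%). GTTAAT was in 0 of the 26 erythroid windows, which says only that these letters are not in these windows. Alas2 and Epb42, a red cell membrane protein gene with 7.56 ± 0.25 in liver (SD, n = 3) and at most 2.85 as the mean of another tissue, are shown as examples that hold a match (TTATCT where it lies on the opposite strand).
Alas2 (chrX:150547167-150547416, plus strand): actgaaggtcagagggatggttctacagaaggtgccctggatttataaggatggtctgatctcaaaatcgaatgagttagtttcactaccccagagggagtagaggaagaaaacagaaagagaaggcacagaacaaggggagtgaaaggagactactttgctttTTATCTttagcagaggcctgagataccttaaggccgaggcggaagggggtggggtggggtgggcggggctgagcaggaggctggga
Epb42 (chr2:121036878-121037127, minus strand): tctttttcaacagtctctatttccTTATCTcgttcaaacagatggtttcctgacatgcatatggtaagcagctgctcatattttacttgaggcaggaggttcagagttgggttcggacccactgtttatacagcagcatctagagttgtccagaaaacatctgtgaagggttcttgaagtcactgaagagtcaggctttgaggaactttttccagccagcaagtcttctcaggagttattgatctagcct
The match begins at base -86 in Alas2 and at -226 in Epb42, both on the strand opposite to the gene.

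Globins could be read only in part, because the probe sets named here carry a single symbol. Of 6 measured globin genes only the embryonic Hbb-y was liver-high, with 5.54, 6.13 and 4.90 on the liver arrays, against -0.29, 0.85 and 3.89 on the others. It reached the filter level in liver alone, and with the other means set to that level it was 1.12-fold higher. Hba-a1 had 5.19, 6.30 and 5.35, against 4.18, 5.19 and 5.97, and the single-symbol probe set of Hbb-b2 did not exceed 5.04 in liver; Hbb-b2 was chosen after its values were seen and another probe set of it was liver-high. Probe sets with several symbols were tested but are not named, so the main adult globins were not analysed here.

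Granulocyte genes mark mainly the precursors and mature cells of the neutrophil line. Of 21 measured members 17 passed the filter and 14 were liver-high, and the median difference over all 21 was 3.39 (2.82 bounded). The 4 that were not tested were Gfi1, Itgam and the eosinophil genes Prg2 and Epx. Csf3r, Mmp8 and Mmp9 passed the filter but were not liver-high. These members were named after their values were seen. All 17 were higher than the mean of 4 tissues, against 25.1% of all tested genes. In 5 of the 14 liver-high genes only liver reached the filter level, so their direction was fixed by the filter. S100a8 and S100a9, the calprotectin subunits of neutrophil cytoplasm, had 11.64, 11.53 and 11.32, and 12.08, 11.84 and 11.70 on the liver arrays. The other arrays ran from 3.03 over a median of 5.06 to 7.10 for S100a8 and from 2.54 over 4.92 to 6.79 for S100a9. Neither overlapped with liver, and the genes were at least 70.4-fold and 76.6-fold higher than in any other tissue, with S100a8 at 41.1-fold without stomach replicate 1. The secondary granule genes Camp and Ngp were at least 63.4-fold and 47.2-fold higher. The primary granule genes Mpo and Elane, which mark promyelocytes, had 10.85, 10.24 and 10.06, and 8.39, 7.97 and 8.38, with no other array above 6.48 for either. Chil3 had 10.66, 10.12 and 9.48, with the highest other array at 3.37. The mean deviation of the list was 0.29 on liver replicate 1, -0.07 on replicate 2 and -0.22 on replicate 3, whereas that of the erythroblast list was -0.10, 0.06 and 0.03.

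Platelet, lymphoid and stem cell genes were raised in part. Of 13 measured megakaryocyte and platelet genes 5 were liver-high, with a median difference of 1.18 (1.08 bounded). The platelet chemokine genes Ppbp and Pf4 had 10.96, 10.82 and 10.81, and 11.32, 11.17 and 11.23 on the liver arrays, with highest other arrays of 7.06 and 10.13. The platelet receptor genes Clec1b, Gp9 and Treml1 were at least 10.8-fold, 2.74-fold and 2.52-fold higher than in any other tissue. Of the 13 members, 9 were higher than the mean of 4 tissues, against 25.1% of all tested genes. The other members were named after their values were seen. Itga2b, Gp5, Vwf and F2rl2 were higher than that mean but not liver-high. Gp1bb and Nrgn did not pass against it, Rab27b was lower by 0.85, and Itgb3 was not tested.

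Of 15 measured lymphoid genes 7 were liver-high, with a median difference of 1.28 (0.87 bounded), and these were Cd79a, Cd79b, Vpreb1, Vpreb3, Igll1, Rag1 and Il7r, most of which mark early B cells. With means under 5.36 set to that level, Igll1 and Rag1 were under 2-fold higher. Cd79b, a signalling chain of the B cell receptor, had 8.06, 7.55 and 7.89, against 3.03, 4.52 and 5.53. The surrogate light chain genes Vpreb1 and Igll1, which pre-B cells use before they have a light chain, had 6.24, 7.05 and 6.36, and 7.05, 6.05 and 5.71, with highest other arrays of 4.22 and 5.51. The cytokine receptor gene Il7r had 6.73, 6.90 and 6.96, against 4.64, 5.49 and 5.98. The B cell genes Ebf1 and Ighm, chosen after their values were seen, went against this. Ebf1 had 5.24, 5.20 and 5.29 in liver, against 7.20 ± 0.08 in brain (SD, n = 3), and the brightest Ighm probe set was lower in liver while 4 further probe sets of the gene were higher, 2 of them liver-high.

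Of 15 measured stem and progenitor genes 3 were liver-high, namely Ptprc, Ikzf1 and Cd48, which blood cells in general express. Ikzf1 and Cd48 reached the filter level in liver alone and were 1.29-fold and 1.16-fold above it. Ptprc, the pan-leukocyte CD45, had 8.70, 8.88 and 8.97, against 4.97, 6.44 and 7.17. Kit, a stem cell receptor also used by other cell types, had 6.94, 7.19 and 6.85, against 7.57, 8.28 and 8.63, and was lower in liver in all 4 comparisons. Meis1 was liver-low, with 5.42, 5.78 and 5.90, against 6.68, 8.12 and 9.39. Cd34, which endothelium also expresses and which was chosen after its values were seen, differed by -1.64 from the mean of 4 tissues. The list's median difference was 0.44 (0.21 bounded).

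Resident macrophage genes included 14 liver-high members among 19 measured, with a median difference of 2.03 (1.89 bounded). The Kupffer cell gene Clec4f had 8.68, 8.39 and 8.37, against 2.87, 4.49 and 5.86. Cd5l, secreted by macrophages, had 9.64, 9.61 and 10.08, against 4.04, 5.17 and 6.93. Marco, a scavenger receptor, had 7.99, 7.47 and 7.95, against 1.59, 2.10 and 4.42. All 3 lay above every other array, but for Clec4f and Marco only the liver mean reached the filter level. Vsig4, a complement receptor, was at least 8.26-fold higher than in any other tissue, and Fcer1g, the shared signalling chain of Fc receptors, 4.69-fold. The members that were not liver-high were C1qa, C1qb, Cd163, Mrc1 and Fcgr3, named after their values were seen. C1qb averaged 8.11 in liver and 8.10 in salivary tissue and did not pass against the mean of 4 tissues (adjusted p = 0.433 in limma). Cd163 averaged 5.20 in liver and 6.16 in salivary tissue. The other members named here were higher than the mean of 4 tissues.

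Sinusoidal endothelium was marked by 4 liver-high genes of 17 measured, with a median difference of 1.03 (0.98 bounded). The lectin gene Clec4g had 9.97, 9.63 and 9.80, against 4.20, 5.17 and 6.01. The hyaluronan scavenger receptor gene Stab2 had 8.91, 8.93 and 8.91, against 4.98, 5.78 and 6.43. Both lay above every other array, as did Oit3 and Gpr182, of which Gpr182 was 2.02-fold above kidney. For Oit3 only the liver mean reached the filter level. Of the 17 members, 13 were higher and 2 lower than the mean of 4 tissues (background 25.1% of tested genes higher and 41% lower). The lower ones were Fcgr2b and Tek, with differences of -0.575 and -0.89. Pecam1 and Dnase1l3 were not tested, and these 4 genes were named after their values were seen. Kdr, the general endothelial receptor for vascular endothelial growth factor, chosen after its values were seen, had 8.40, 8.61 and 8.96 in liver, against 9.11 ± 0.09 in kidney (SD, n = 3).

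Stellate cell, mesenchyme and bile duct genes were not raised as groups. Of 17 measured stellate and portal mesenchyme genes Lrat, which esterifies vitamin A for storage, was the only liver-high member, with 5.71, 5.65 and 5.78, against 1.34, 3.04 and 3.67. It reached the filter level in liver alone, 1.28-fold above it. Of the 17 members, 5 were higher and 6 lower than the mean of 4 tissues (background 25.1% of tested genes higher and 41% lower). Besides Lrat the higher ones were Lhx2, Reln, Ecm1 and Cxcl12, named after their values were seen. Their differences were 1.93, 1.18, 1.02 and 0.41. Brain had a higher mean than liver for Lhx2 and Reln, and stomach for Ecm1. The pericyte gene Rgs5 was liver-low. The collagen and contractile genes Col1a2, Col3a1, Acta2 and the receptor gene Pdgfrb, chosen after their values were seen, were lower than the mean of 4 tissues, with differences of -1.99, -1.21, -2.34 and -1.55. A second Acta2 probe set went the opposite way. Acta2 had 8.85, 8.12 and 8.57 in liver, against 7.92 ± 0.10 in brain (SD, n = 3), 11.43 ± 0.14 in kidney and 12.50 on the highest stomach array.

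Of 13 measured bile duct genes only Onecut1, which hepatocytes also express, was liver-high, and the median difference was -1.51 (-1.17 bounded). Epcam, an adhesion molecule of bile ducts and many other epithelia that was chosen after its values were seen, had 2.65, 2.58 and 2.50 in liver, against 2.13 ± 0.44 in brain (SD, n = 3), 8.5 ± 0.15 in kidney and up to 10.12 on the salivary arrays. Krt19, a duct keratin, had 5.50, 4.81 and 4.25 in liver, against 10.93, 10.77 and 10.71 in stomach. Epcam did not pass against brain (adjusted p = 0.399 in limma), and Krt19 was lower in liver than in kidney, stomach and salivary tissue, with liver and brain means both under the filter level. Cldn7, a tight junction gene, and Cftr, the chloride channel, were liver-low.

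Cell cycle genes were higher in liver than the mean of 4 tissues in 27 of 34 measured cases, with a median difference of 0.81 (0.79 bounded), yet 0 were liver-high. Tissue by tissue, 31 were higher in liver than in brain, 19 than in kidney, 20 than in stomach and 17 than in salivary tissue. Of all tested genes, 30% were higher in liver than in brain, 21.3% than in kidney, 23.7% than in stomach and 18.5% than in salivary tissue. Mki67, a marker of dividing cells, had 10.18, 10.79 and 10.64, against 7.57 ± 0.05 in brain (SD, n = 3), 9.63 ± 0.18 in kidney and 9.44 ± 0.34 in salivary tissue. Top2a, the topoisomerase of mitosis, had 9.75, 9.88 and 9.80, against 7.90 ± 0.02 in brain and 9.70 ± 0.17 in kidney, and did not pass against kidney (adjusted p = 0.399 in limma). Rrm2 and Mcm2, of DNA replication, and Ccnb2, chosen after their values were seen, were 1.58, 1.08 and 1.09 above the mean of 4 tissues. Ccnd2 was liver-low, with 8.16, 7.99 and 8.17, against 9.71, 10.26 and 10.81. In null arrays 11 members of the list were liver-high, against 0 in wild-type arrays, and the difference was not tested.

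Liver-low genes by their rule exceeded liver in all 4 other tissues. Cpe, a prohormone-processing carboxypeptidase, had 5.16, 5.47 and 5.24 on the liver arrays, against 8.74, 10.07 and 11.49 on the others. Enah, a regulator of actin filaments, had 2.54, 2.58 and 4.76, against 9.30, 10.12 and 10.56. Ptn, a heparin-binding growth factor, had 4.24, 4.65 and 4.28, against 7.94, 8.82 and 10.31. None of the 3 overlapped, and all were under or near the filter level in liver. The matrix genes Vcan and Ogn, the mesenchymal cadherin gene Cdh11, the receptor gene Pdgfra and the transcriptional regulators Id4, Ndn and Hmgn3 were further liver-low genes, with differences from the mean of 4 tissues of -4.18 to -3.13. Of 6 other probe sets of Ndn, 2 went the opposite way.

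The genes lowest in liver against a single tissue included known products of that tissue. Against salivary tissue they were Bpifa2, Car6, Mucl2 and Dcpp3, secreted by salivary glands, with tissue means of 12.49 to 12.93 there. Against stomach they were Gkn2, Pga5, Bpifb1 and Lypd8, against brain Stmn3, Stmn2, Fabp7 and Ints6, and against kidney Cdh16, Gpx3, Umod and Calb1. Bpifa2 had 5.10, 4.72 and 4.68 in liver, against 12.93 ± 0.06 in salivary tissue (SD, n = 3). Umod had 4.25, 3.0 and 4.26 in liver, against 10.75 ± 0.29 in kidney. In the marker lists of the other tissues, 0 of 17 brain, 0 of 16 kidney, 0 of 16 stomach, 0 of 14 pancreas and 0 of 15 brown fat and muscle genes were liver-high. The exception among 14 salivary markers was Amy1, an amylase gene that liver is known to express, with 10.12, 9.73 and 9.49 in liver, against 2.22, 3.80 and 7.04 on the others.

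Correlations between the liver arrays over all probe sets lay between 0.954 and 0.959. They were 0.9658 to 0.9704 in brain, 0.9625 to 0.9656 in kidney, 0.9578 to 0.9657 in stomach and 0.9434 to 0.9540 in salivary tissue. Median SDs over the 3 liver arrays were taken from genes with a liver mean over the filter level. They were 0.08 for 24 plasma carrier genes, 0.15 for 36 erythroblast genes, 0.31 for 23 urea cycle genes and 0.17 for all 8234 genes. The 5 genes with the largest SD among those above the filter level were Adamts5, Cinp, Arhgap27, Xist and Cyp2c37. In Adamts5 and Cinp replicate 1 stood apart, with 3.56 against 6.15 and 6.41, and 3.30 against 6.41 and 6.44. In Arhgap27 replicate 2 stood apart, with 3.74 against 6.98 and 6.20.

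The same rules applied to the 15 null arrays gave 889 liver-high (5.33%) and 662 liver-low (3.97%) probe sets. Of the 956 wild-type liver-high probe sets 684 were liver-high there too, which is 76.9% of the null and 71.5% of the wild-type calls. Of the 798 liver-low ones 448 were liver-low there too, 67.7% of the null and 56.1% of the wild-type calls. Genotypes were not compared by a test. Plasma carrier genes gave 23 liver-high members in null as in wild-type arrays, coagulation genes 18 in both, and erythroblast genes 29 in null and 27 in wild-type arrays.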

How the data were processed

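The submitters deposited log2 signals of Affymetrix MOE430A arrays, 1 value per probe set and array, made with MAS5 per the submitters' processing notes. No source used here gives the MAS5 version or the scaling. The trimmed mean of the linear values, with 2% cut at each end, was 149.988 to 150.008 on every array. Of 22690 probe sets, 64 array controls were left out. Of the 22626 others, 20380 had 1 gene symbol, 691 several and 1555 none, per the platform annotation, and only those with 1 symbol are named. A gene was read from its brightest probe set. Arrays were grouped by genotype and tissue in the sample titles, and their number limits the precision.

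limma 3.58.1 in R 4.3.3 (lmFit, then eBayes with the trend option, p-values adjusted by Benjamini-Hochberg over every tested probe set) compared liver with the mean of the 4 other tissues in a fit of 15 arrays, and with each tissue in a fit of its 3 arrays and the 3 liver arrays. On simulated data with 14466 probe sets, the mean of 4 tissues recovered 86% of 2-fold and 97% of 4-fold changes with 5 false calls. All 4 single-tissue comparisons together recovered 48% and 92% with 0 false calls. No 2-fold minimum is named for the simulation, so these shares are not given as recovery by the liver-high or liver-low rule. Replicate numbers were not used to pair samples.

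The members of the comparison and the gene lists were chosen with earlier results of these data known. Of 657 listed genes 568 were measured. The naming rule took a panel of 56 genes, of which 47 were measured, the 20 liver-high and 12 liver-low genes with the largest bounded difference, the 4 highest and 4 lowest against each tissue, up to 6 liver-high and 3 liver-low genes per list, and the 5 with the largest SD in liver. Genes named beyond it are given as chosen after their values were seen, as was Epb42. Upstream sequences are from RefSeq. Alternatives varied the filter, scaling, floor, model, thresholds and arrays. The bounded medians of the lists, and the folds with 1 array left out, were added after seeing the data.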

Additional observations from a re-analysis of the deposited data

Results flagged for a closer look

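In 2 named genes the difference of liver from the mean of the 4 tissues had one sign on every null liver array and the opposite sign on every wild-type liver array, and this difference between genotypes was not tested. For Car3, a carbonic anhydrase, it was -1.20 in null and 3.04 in wild-type arrays, with liver at 6.22 ± 0.80 in null and 10.43 ± 0.34 in wild-type mice (SD, n = 3 each). For Ppargc1a, a coactivator of oxidative metabolism, it was 1.54 in null and -0.53 in wild-type arrays, with liver at 9.90 ± 0.56 in null and 7.16 ± 0.32 in wild-type mice.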

How the results depend on the processing

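The 956 liver-high probe sets became 580 with a filter on the mean over the 15 arrays and 1645 without the 2-fold minimum. The 798 liver-low probe sets became 365 with values floored at the filter level, 279 with 32 added to the linear signal and 1968 without the 2-fold minimum. Against the mean of 4 tissues, 2088 were higher and 3311 lower with the 12 other arrays as 1 group, and 1793 higher and 2863 lower with a 2-fold minimum. Without stomach replicates 2 and 3, an alternative of fewer samples, 5475 probe sets were called for liver against stomach. The other causes were not tested. Leaving out 1 array at a time gave 3605 to 4124 higher and 6153 to 6774 lower than the mean of 4 tissues, 902 to 962 liver-high and 730 to 815 liver-low, and 9876 to 10893 calls against brain, 7796 to 9168 against kidney, 7669 to 9053 against stomach and 6408 to 7584 against salivary tissue. Of calls against the mean of 4 tissues, 37.3% were higher in liver, and 46% with equal array medians or 42.5% after quantile normalization. A replicate block gave 4028 higher and 6742 lower, 957 liver-high and 799 liver-low. The labels do not say that same-numbered arrays share a pup. Deviations of the 12 same-numbered pairs with liver correlated between -0.04 and 0.15, 10 above 0 and 5 above 0.1, and in 8 of 12 cases a liver array correlated best with its own number, a hint from the data and not the design. Xist also followed the number, low in replicate 1 of all 5 null and in replicate 3 of all 5 wild-type tissues.

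Counts of liver-high genes per list moved by over 1.5 times for 12 lists with the filter on the mean over 15 arrays, which tests fewer genes. They became 8 of 15 for complement, 14 of 26 for cytochrome P450 and conjugation, 3 of 6 for adult liver, 4 of 9 for transcription factors, 17 of 27 for erythroblasts, 8 of 14 for granulocytes, 3 of 5 for platelets, 2 of 7 for lymphoid, 1 of 3 for stem cell genes, and 0 of 1 for globins, stellate and bile duct genes. With values floored, fatty acid oxidation had 9 and not 14, fetal liver 1 and not 2, stem cell genes 1 and not 3, and globins and stellate genes 0. Without the 2-fold minimum, cell cycle had 13 and not 0, transcription factors 14 and not 9, sinusoidal endothelium 9 and not 4, and stem cell genes 5 and not 3. Fatty acid oxidation also had 9 at an adjusted p under 0.01, and lymphoid genes 4 with 32 added.

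The difference from the mean of the other tissues reversed for Cdh16, to -1.09 with the floor and -0.57 with 32 added. Without stomach it was 0.37 for Bpifb1, 0.996 for Gkn2 and 0.27 for Pga5. On the null arrays it was -1.20 for Car3, -0.0425 for Cyp2f2, -0.16 for Keg1, 0.73 for Oat and 1.54 for Ppargc1a. The cause was not tested. With 3 arrays a group, differences near 2-fold are the least certain, and values under 5.36 have no firm order.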
